A study of Mus musculus with 4 samples.

Results

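The 9 chemokine receptor genes of lymphocytes, *Ccr2*, *Ccr4*, *Ccr6*, *Ccr7*, *Ccr8*, *Cxcr3*, *Cxcr4*, *Cxcr5* and *Cxcr6*, were described across 4 RNA-Seq libraries of CD4+ T cells isolated from lung tumors. These genes were taken by symbol, and all 9 were found among the 25239 gene symbols counted in every library. Mice of the C57BL/6 background, given in the methods as males of 8 to 10 weeks, were intravenously inoculated with LLC-OVA cells, which are Lewis lung carcinoma cells that carry ovalbumin, and tumors were excised after 18 to 22 days according to the sample labels (days 16 to 20 in the methods). A group of 2 libraries is labelled WT. The other group of 2 libraries carries the genotype CD4CreERT2+/-/Acvr1bfl/fl, named CD4/ALK4-KO, in which tamoxifen, given in 5 daily doses, activates a Cre recombinase driven by the *Cd4* promoter and so deletes *Acvr1b*, the gene of the activin receptor ALK4, in cells that use this promoter. Whether the WT mice also received tamoxifen is not given in the sources used here. The comparison asks whether deleting this receptor from T cells goes with a different set of homing receptor transcripts in the cells recovered from the tumor.

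Chemokine receptors are membrane receptors that couple to inhibitory G proteins and steer leukocytes along gradients of small secreted chemokines. On T cells they sort subsets to their sites. CCR7 leads naive and central memory cells into lymph nodes, CXCR5 leads follicular helper cells and B cells into follicles, CXCR3 marks type 1 effector cells, CCR6 marks Th17 cells, CCR4 and CCR8 are found on regulatory and Th2 cells, and CXCR6 is a receptor of effector and tissue-resident cells. CCR2 and CXCR4 are shared with other leukocytes, CCR2 being the defining receptor of inflammatory monocytes.

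Total counts ranged from 11823908 to 13943237 per library, and replicates differed by more than sampling noise. For *Acvr1b* the WT-labelled libraries held 426 and 342 counts and the others 322 and 445. The log2 fold change was 0.16, and edgeR's quasi-likelihood test gave an adjusted p = 0.66. The groups overlapped. Its counts cover the whole gene, including any exon outside the deleted part, so they do not check the genotype, and the groups are named here as labelled, "KO-labelled" standing for CD4/ALK4-KO. The defining transcripts of the labelled cell type differed: *Cd4* had 51.7 CPM on average in the WT-labelled and 317 CPM in the KO-labelled libraries. All 20 genes of a T cell identity list, the most abundant being *Cd3g* (2.16), *Lck* (2.84) and *Cd4* (2.62), were higher in the KO-labelled libraries (median log2 fold change 2.42). Markers of macrophages and monocytes summed to between 8476 and 9672 CPM over all 4 libraries. The T cell identity genes summed to less (622 to 673 CPM in the WT-labelled libraries and 3386 to 3541 CPM in the KO-labelled ones). *Lyz2* (mean 4738 CPM) and *Ctss* (1710 CPM) held most of the former sum, so these sums do not compare numbers of cells. Genes of epithelium, stroma and tumor summed to 7476 and 8026 CPM in the WT-labelled libraries. In the KO-labelled ones they summed to 5517 and 4762 CPM, also above the T cell identity genes. RNA of other cells was therefore abundant in all 4 libraries, and the receptor values cannot be read as those of T cells alone. A higher share of T cells and more receptor RNA per T cell cannot be told apart in bulk libraries.

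All 9 receptors were higher in the KO-labelled libraries at an adjusted p under 0.05. Of the 13919 genes tested, 17.4% were called higher and 15.4% lower. A scale relative to CD3 transcripts lowered the values of all genes, and 92.0% of the genes tested were called lower on it. *Ccr2* and *Cxcr4* were among those called lower, and *Ccr7* and *Cxcr6* had values under 0 that were not called. In CPM, counts scaled to the library size corrected by the TMM factors, both KO-labelled libraries lay above both WT-labelled ones for all 9 receptors, which was also so for 32.7% of the genes tested. The median log2 fold change was 2.36 over the 9 receptors and -0.0082 over all genes tested. The receptors fell into 2 ranges of size. In all, 7 of them rose between 3.88-fold (*Cxcr6*) and 7.91-fold (*Cxcr5*). *Ccr2* and *Cxcr4* rose by 1.55-fold and 1.62-fold, and the upper ends of their 95% intervals (log2 1.11 and 1.15) lay below the lower end for *Cxcr6*, at 1.39. The plot of CPM by library shows these values for each receptor.

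**Figure D1:**
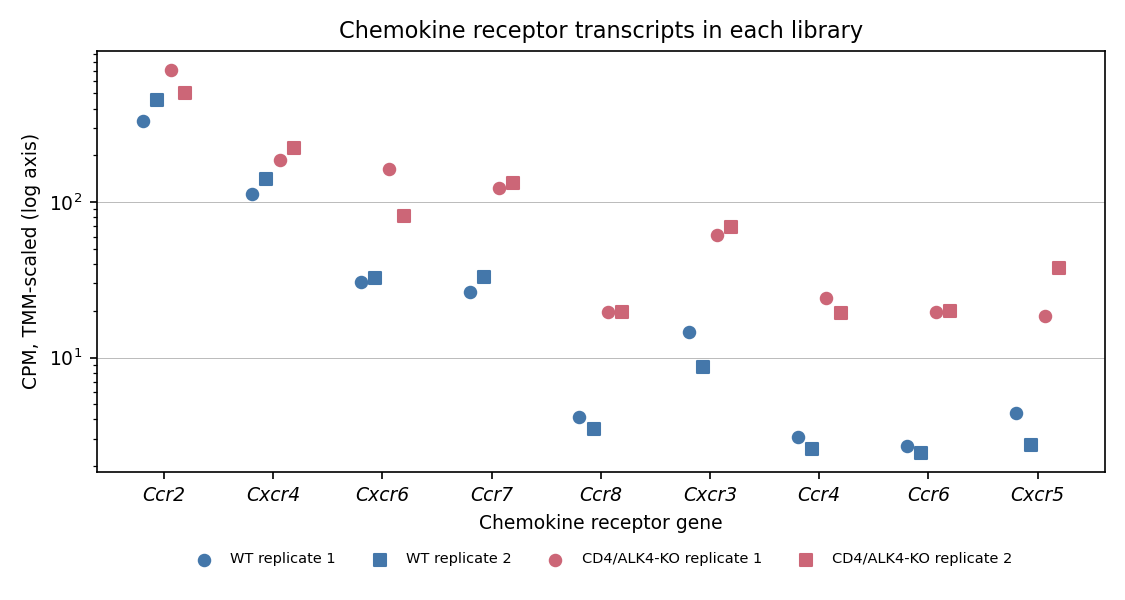
Chemokine receptor transcripts in each of the 4 libraries, as TMM-scaled CPM on a log axis, ordered from the smallest to the largest fold change. Each point is 1 library. The KO-labelled points lie above the WT-labelled ones for all 9 genes, with the narrowest gap for *Ccr2* (454 against 504 CPM) and a wide spread between the KO-labelled libraries for *Cxcr6* and *Cxcr5*.

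Among receptors of helper subsets that home to inflamed tissue, *Cxcr3* encodes the receptor of the interferon-induced chemokines CXCL9, CXCL10 and CXCL11. It had 201 and 118 counts in the WT-labelled libraries and 736 and 853 in the KO-labelled ones, or 11.7 ± 4.20 CPM against 65.5 ± 5.13 CPM (mean ± SD, n = 2 libraries each, as for all CPM below). The groups did not overlap, although the WT-labelled libraries differed from each other by 1.68-fold, the widest gap between WT-labelled replicates of the 9 receptors. The log2 fold change of *Cxcr3* was 2.48 (SE = 0.26), with adjusted p = 2.7e-07, all such p being from edgeR unless named otherwise, and 1.37% of the genes tested had one at least as large. *Ccr6*, the receptor of CCL20, was among the least abundant, with 37 and 33 counts against 234 and 247. Counting error alone gives 95% Poisson intervals of 26.1 to 51.0 and 22.7 to 46.3 for the WT-labelled counts, which lie well below the KO-labelled ones. Its replicates were close in both groups (2.57 ± 0.184 and 19.8 ± 0.245 CPM), and its log2 fold change was 2.94 (SE = 0.32, adjusted p = 4.6e-07). The Th17 list moved in the same direction, all 4 of its tested genes being called higher (median 2.07), *Rora* at 1.88 and *Il17a* at 1.71. B cells also carry CCR6, and per 1000 counts summed over a list of B cell genes *Ccr6* had 27.8 and 29.7 counts against 69.3 and 35.5. This ratio, the same one for *Cxcr5* and those of *Ccr2* and *Cxcr4* to macrophage and monocyte genes were chosen after the values were seen. The other ratios of receptors to the B cell, macrophage and regulatory T cell lists are not reported here.

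*Ccr4* and *Ccr8*, receptors of regulatory and Th2 cells, had similar low counts in the WT-labelled libraries. *Ccr4*, whose product binds CCL17 and CCL22, had 42 and 35 counts against 286 and 238, or 2.83 ± 0.338 CPM against 21.7 ± 3.36 CPM. It rose by 2.93 on the log2 scale (SE = 0.32, adjusted p = 4.4e-07). *Ccr8*, whose product binds CCL1, had 57 and 47 counts against 234 and 242, or 3.82 ± 0.484 CPM against 19.6 ± 0.0409 CPM. Its KO-labelled libraries were the closest pair of all, and its log2 fold change was 2.36 (SE = 0.31, adjusted p = 4.5e-06). Neither gene had overlapping groups. Of 8 genes on the regulatory T cell list, 7 were called higher (median 2.07), with *Il2ra* at 2.98, *Foxp3* at 2.69, *Ikzf2* at 2.31, *Ctla4* at 2.11 and *Nrp1* at 0.62, while *Il10* was at -0.40 (adjusted p = 0.45). The Th2 list gave no common direction, with *Gata3* called higher (2.40) and *Il1rl1* called lower (-1.65) among 3 tested genes, and *Maf* at 0.25 (adjusted p = 0.40).

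*Ccr7*, the receptor of CCL19 and CCL21, had 360 and 444 counts in the WT-labelled libraries and 1473 and 1649 in the KO-labelled ones. In CPM these were 29.5 ± 4.63 and 129 ± 6.94, with no overlap and a log2 fold change of 2.12 (SE = 0.23, adjusted p = 3.1e-07). Mature dendritic cells also carry CCR7. Genes of the dendritic cell list went both ways, with 5 called higher and 2 lower of 11, *Siglech* (1.52), *Flt3* (1.45), *Itgax* (1.42), *Cd209a* (1.32) and *Ccl22* (1.13) being higher and *Clec9a* (-0.73) lower. *Fscn1*, which like *Ccl22* is used by mature dendritic cells, was the other gene called lower, with 2045 and 1619 against 604 and 549 counts. Of the 8 naive and central memory genes, 7 were called higher (median 1.79), including *Satb1* (333 and 488 against 3466 and 2388 counts), *Lef1* (2.73) and *Il7r* (1.68). *Klf2* was at 0.094 (adjusted p = 0.80).

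*Cxcr5*, the receptor of CXCL13, had the largest fold change of the 9 and the least even pair of replicates. It had 60 and 37 counts against 221 and 467, or 3.56 ± 1.16 CPM against 28.2 ± 13.6 CPM. The KO-labelled libraries differed by 2.04-fold but both exceeded the WT-labelled ones. The log2 fold change was 2.98 (SE = 0.36, adjusted p = 2.1e-06), and it was 3.44 without CD4/ALK4-KO replicate 1 and 2.37 when the other KO-labelled library was left out. B cells also carry CXCR5. All 13 B cell genes tested were called higher (median 2.52), none was at 0 in any library, and their summed level was 82.2 to 97.0 CPM in the WT-labelled libraries, 284 CPM in CD4/ALK4-KO replicate 1 and 563 CPM in replicate 2. The most abundant of them were *Cd79b* (1.69), *Ms4a1* (2.16) and *Cr2* (3.05). Per 1000 counts of the B cell list *Cxcr5* had 45.1 and 33.3 counts in the WT-labelled and 65.4 and 67.1 in the KO-labelled libraries. The part of B cells in the values of *Cxcr5* was not tested. Among follicular helper genes 6 of 6 tested were called higher (median 2.20), *Icos* at 2.01, *Pdcd1* at 2.39, *Sh2d1a* at 1.99 and *Bcl6*, the defining factor, at 0.82 (adjusted p = 0.026). In the KO-labelled libraries *Pdcd1* had 632 and 935 counts, *Il21* 44 and 97 and *Bcl6* 224 and 297, each more in replicate 2 like *Cxcr5*, while *Icos* had 2276 and 2285 and *Sh2d1a* 570 and 524. In the annotation, 110 of the 3332 exonic bases of *Cxcr5* overlap exons of *Bcl9l* on the other strand, and the library kit does not mark strand. *Bcl9l* had 261, 175, 123 and 418 counts in the order above, so it also was higher in CD4/ALK4-KO replicate 2.

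*Cxcr6*, the receptor of CXCL16, had 418 and 438 counts in the WT-labelled libraries against 1932 and 1007 in the KO-labelled ones. The WT-labelled pair differed by 1.06-fold and the KO-labelled pair by 1.99-fold, here with CD4/ALK4-KO replicate 1 above replicate 2, the reverse of *Cxcr5*. In CPM the groups had 31.4 ± 1.33 and 122 ± 57.1, and the log2 fold change was 1.95 (SE = 0.27, adjusted p = 1.5e-05), and it was 1.41 without CD4/ALK4-KO replicate 1 and 2.36 when the other KO-labelled library was left out. The CD8 T cell genes *Cd8a*, *Cd8b1* and *Gzmk* (2.43, 2.49 and 0.95) were all called higher, although the cells were isolated as CD4+ T cells, and CXCR6 is also carried by CD8 T cells and NKT cells. Of 10 NK cell and innate lymphoid genes, 9 were called higher, such as *Klrk1* (1.73) and *Klrd1* (1.68), and *Il1rl1* lower. *Cxcr6* lies inside an intron of *Fyco1*, which is on the other strand and shares no exonic base with it. *Fyco1* was higher too (log2 fold change 1.76, adjusted p = 1.2e-05), with 671 and 869 counts in the KO-labelled libraries, an order opposite to that of *Cxcr6*.

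The remaining pair was the most abundant and changed least. *Ccr2*, the receptor of CCL2 and related chemokines, had 4525 and 6143 counts against 8440 and 6218, or 392 ± 87.6 CPM against 606 ± 145 CPM. The smaller KO-labelled value exceeded the larger WT-labelled one by less than either pair of replicates differed. Its log2 fold change was 0.63 (SE = 0.23, 95% interval 0.15 to 1.11, adjusted p = 0.041), and 21.5% of the genes tested had one at least as large. The call was lost without WT replicate 1 (0.41, adjusted p = 0.54), without WT replicate 2 (0.87, adjusted p = 0.091) and without CD4/ALK4-KO replicate 1 (0.39, adjusted p = 0.071). *Cxcr4*, the receptor of CXCL12, which retains cells in bone marrow and tissue, had 1542 and 1915 counts against 2222 and 2770. That is 127 ± 20.5 CPM against 206 ± 26.6 CPM, with no overlap, and a log2 fold change of 0.69 (SE = 0.22, 95% interval 0.24 to 1.15, adjusted p = 0.018). Without WT replicate 1 it was 0.53 (adjusted p = 0.37) and without WT replicate 2 it was 0.86 (adjusted p = 0.086).

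The macrophage and monocyte list, whose cells carry both receptors, had 2 of 15 genes called higher and none lower (median -0.15). Its most abundant genes, *Lyz2*, *Ctss* and *Itgam*, had log2 fold changes of -0.15, -0.016 and 0.49, none called. The 2 genes called were *Csf1r* (0.70, adjusted p = 0.022) and *Ly6c2*, a gene of the inflammatory monocytes that carry CCR2. *Ly6c2* rose by 1.24 (adjusted p = 0.00039), with 1050 and 1692 against 3045 and 2729 counts. The part of macrophages and monocytes in the values of *Ccr2* and *Cxcr4* was not tested. Neutrophil genes, whose cells also carry CXCR4, had 3 of 12 called higher (median 0.53), *S100a9* being at 0.0056, *S100a8* at -0.35 and *Retnlg* at 0.26, none of these called.

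**Figure D2:**
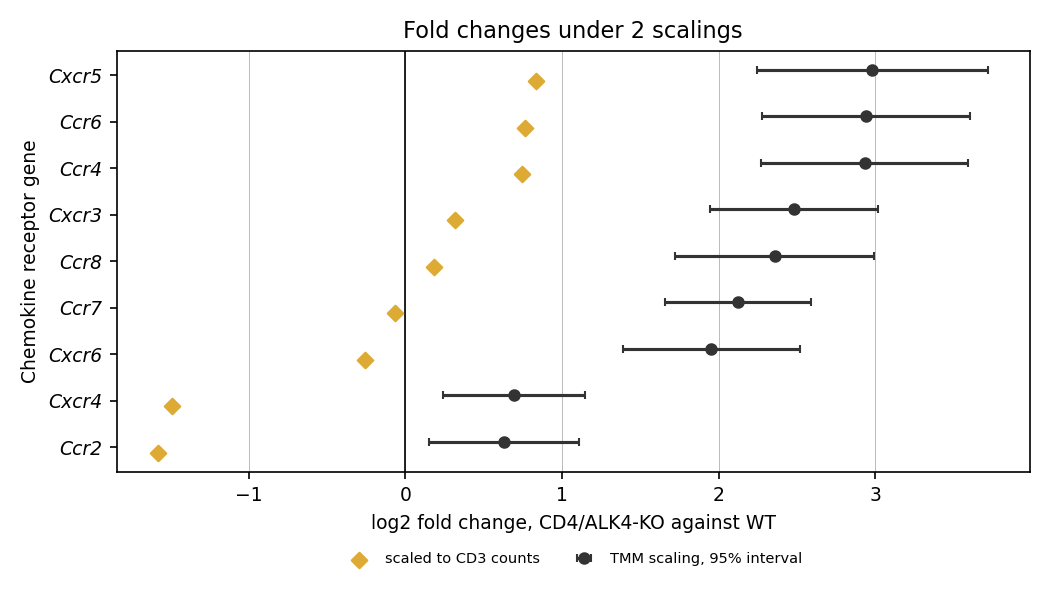
Log2 fold changes of the 9 chemokine receptors, KO-labelled against WT-labelled. Black points are the TMM-scaled values with 95% intervals from edgeR, and yellow diamonds the values with libraries scaled to CD3 counts. All 9 black points are above 0, whereas the diamonds run from -1.58 (*Ccr2*) to 0.84 (*Cxcr5*). The median of all genes tested was -2.19 on the CD3 scale.

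Since the transcripts of the T cell receptor complex differed between the groups, receptor counts were also set against them within each library. The genes *Cd3d*, *Cd3e*, *Cd3g* and *Cd247* together had 2650 and 2454 counts in the WT-labelled libraries and 10768 and 9932 in the KO-labelled ones. Scaling the libraries to these counts shifted the median log2 fold change of all genes to -2.19, with 0.345% of the genes called higher and 92.0% lower. Tested against 0 on this scale, not against that shift, 6 of the 9 receptors were not called. *Cxcr5* was called higher, and *Ccr2* and *Cxcr4* were called lower. The receptors' values, from -1.58 (*Ccr2*) to 0.84 (*Cxcr5*), lay above the median of all genes. The median of the 9 receptors was 0.18 on this scale.

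*Ccr2* had 1708 and 2503 counts per 1000 CD3 counts in the WT-labelled libraries against 784 and 626 in the KO-labelled ones (log2 fold change -1.58, adjusted p = 1.3e-11). *Cxcr4* had 582 and 780 against 206 and 279 (-1.49, adjusted p = 2.3e-10). In both genes the groups were well apart, in the direction opposite to that of CPM, but 92.0% of the genes tested were also called lower on this scale. *Cxcr5* had 22.6 and 15.1 against 20.5 and 47.0, so its groups overlapped although it was called (0.84, adjusted p = 0.026), with CD4/ALK4-KO replicate 2 alone above both WT-labelled libraries. *Ccr4* had 15.8 and 14.3 against 26.6 and 24.0 (0.75, adjusted p = 0.061), and *Ccr6* had 14.0 and 13.4 against 21.7 and 24.9 (0.76, adjusted p = 0.061). For these 2 genes the groups did not overlap, yet the test did not pass.

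For the other 4 receptors the test did not pass either. *Ccr8* had 21.5 and 19.2 against 21.7 and 24.4 (0.18, adjusted p = 0.65), its groups also not overlapping, by a narrow margin. *Cxcr3* had 75.8 and 48.1 against 68.4 and 85.9 (0.31, adjusted p = 0.31). *Ccr7* had 136 and 181 against 137 and 166 (-0.065, adjusted p = 0.80), the KO-labelled pair lying between the WT-labelled ones. *Cxcr6* had 158 and 178 against 179 and 101 (-0.26, adjusted p = 0.31). A value that did not pass the test does not show that a receptor kept pace with CD3.

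**Figure D3:**
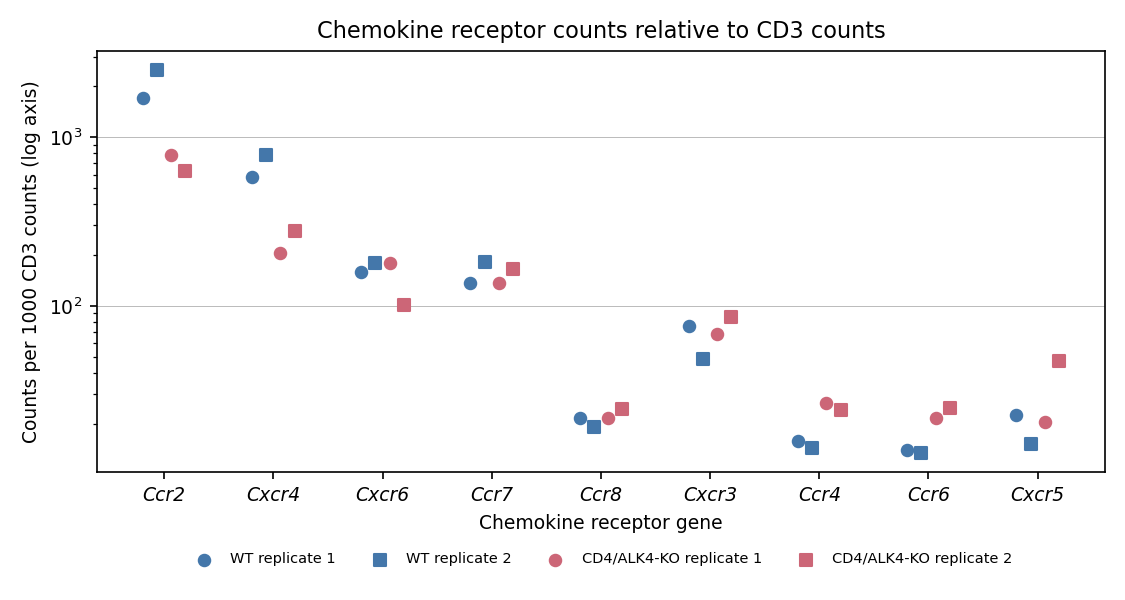
Receptor counts per 1000 counts of *Cd3d*, *Cd3e*, *Cd3g* and *Cd247* in each library, on a log axis, with genes in the order of their fold change in CPM. Each point is 1 library. *Ccr2* and *Cxcr4* are lower in the KO-labelled libraries, *Ccr4*, *Ccr6* and, by a narrow margin, *Ccr8* are higher, and the remaining 4 overlap. The share of all genes without overlap was not taken on this scale, on which 92.0% of the genes tested were called lower.

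The levels of the receptors were ordered per length, as CPM per kilobase of annotated exonic sequence. In the WT-labelled libraries *Cxcr4* (70.3 ± 11.4) and *Ccr2* (58.0 ± 13.0) led and did not differ beyond their spread. They were followed by *Cxcr6* (16.3 ± 0.688) and *Ccr7* (14.9 ± 2.34), which also overlapped, then *Cxcr3* (6.76 ± 2.43) and *Ccr8* (3.25 ± 0.412). The lowest were *Ccr6* (1.11 ± 0.0794), *Cxcr5* (1.07 ± 0.349) and *Ccr4* (0.914 ± 0.109), within or close to each other's spread. In the KO-labelled libraries the order per kilobase was *Cxcr4* (114 ± 14.7), *Ccr2* (89.7 ± 21.5), *Ccr7* (65.0 ± 3.51), *Cxcr6* (63.1 ± 29.6), *Cxcr3* (37.8 ± 2.96), *Ccr8* (16.7 ± 0.0348), *Ccr6* (8.55 ± 0.106), *Cxcr5* (8.46 ± 4.09) and *Ccr4* (7.77 and 6.23 in the libraries). Only *Ccr7* and *Cxcr6* exchanged places, and neither group separated them. The 2 most abundant receptors made up a smaller share of all receptor counts where the others rose, *Ccr2* going from 62.5% and 66.7% of the 9 receptors' counts to 53.5% and 45.4%.

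**Figure D4:**
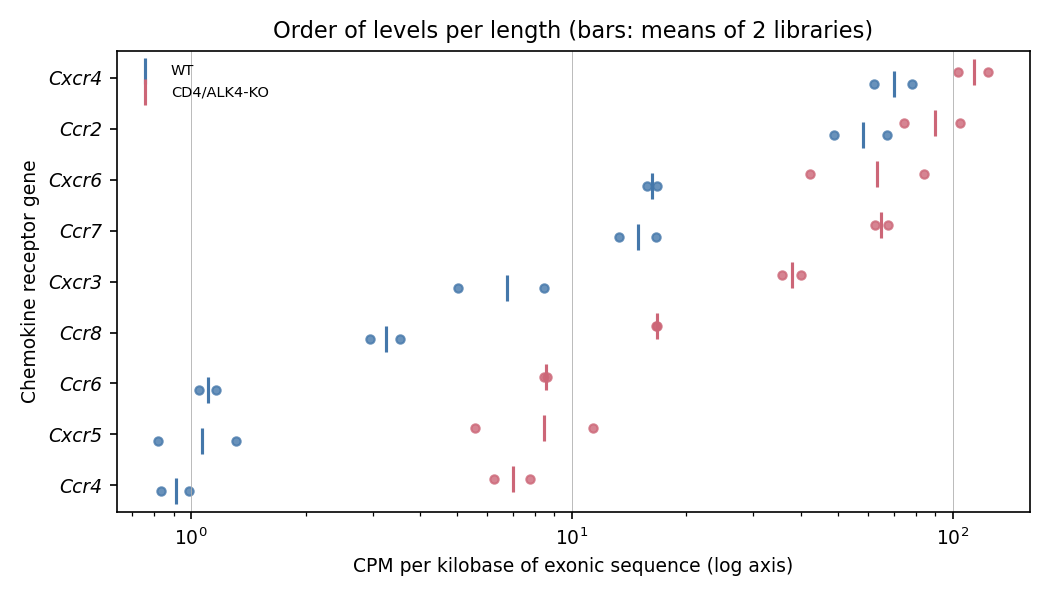
Levels of the 9 receptors as CPM per kilobase of exonic sequence, on a log axis, ordered by the WT-labelled mean. Dots are libraries and vertical bars the means of 2 libraries. *Cxcr4* and *Ccr2* lead in both groups, and *Ccr6*, *Cxcr5* and *Ccr4* are lowest in both.

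On the mouse genome (GRCm38, GENCODE M21) 5 of the 9 genes lie on chromosome 9, namely *Cxcr5* (44511787 to 44561877), *Ccr4* (114490316 to 114504916), *Ccr8* (120092114 to 120094906), *Cxcr6* (123806475 to 123811760) and *Ccr2* (124101950 to 124113557). *Cxcr6* and *Ccr2*, close to each other on the same strand, differed in fold change (3.88 and 1.55). *Cxcr4* lies on chromosome 1 (128588199 to 128592293), *Ccr7* on chromosome 11 (99144196 to 99155077), *Ccr6* on chromosome 17 (8236043 to 8257141) and *Cxcr3* on chromosome X (101731535 to 101734269).

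Sequence before the transcription start, from the RefSeq promoter table for GRCm38.p6, was matched for 7 of the 9 genes, *Ccr7* and *Cxcr5* having no entry. Those of *Ccr6* and *Ccr4*, which rose most among the genes with an entry, and of *Cxcr4*, which rose little, are shown to set genes of unequal change side by side. Each is read along its gene and ends before the first annotated exonic base. Capitals mark matches on either strand to 10 short motifs chosen after the fold changes were known: the TATA box as TATAAA, the GC box as GGGCGG, the site of AP-1 factors as TGANTCA, the core of NFAT sites as GGAAAA, the core of ETS sites as GGAAGT, the motif of T-box factors as GGTGTGA, the motif of FOXO factors as GTAAACA, the motif of KLF factors as CCACCC, the motif of the factor NRF1 as TGCGCA, and the E-box as CAGCTG. The windows are chr17:8235793-8236042 on the plus strand for *Ccr6* (the upstream one of 2 starts), chr9:114496563-114496794 on the minus strand for *Ccr4*, inside the gene span given above and upstream of a RefSeq start within it, and chr1:128592300-128592549 on the minus strand for *Cxcr4*.
Ccr6: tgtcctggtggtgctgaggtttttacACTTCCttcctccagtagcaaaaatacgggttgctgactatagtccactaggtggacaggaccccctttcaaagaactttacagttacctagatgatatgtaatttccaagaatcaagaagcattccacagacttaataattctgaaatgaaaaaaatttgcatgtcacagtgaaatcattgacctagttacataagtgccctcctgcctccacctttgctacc
Ccr4: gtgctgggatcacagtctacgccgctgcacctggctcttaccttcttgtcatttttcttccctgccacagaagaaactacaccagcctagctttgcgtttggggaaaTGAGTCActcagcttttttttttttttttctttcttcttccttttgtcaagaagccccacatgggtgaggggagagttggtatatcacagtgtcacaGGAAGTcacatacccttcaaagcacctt
Cxcr4: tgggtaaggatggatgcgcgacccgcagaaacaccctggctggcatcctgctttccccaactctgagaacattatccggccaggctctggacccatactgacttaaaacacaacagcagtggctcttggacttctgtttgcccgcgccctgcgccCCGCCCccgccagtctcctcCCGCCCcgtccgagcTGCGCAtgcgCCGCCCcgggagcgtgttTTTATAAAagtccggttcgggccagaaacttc

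The *Ccr4* window held an AP-1 match that began 143 bases before the start and an ETS match at 46 bases. An AP-1 match was found in 6.75% of 32817 such windows of 250 bases over the genome's promoters and an ETS match in 19.7%. *Ccr6* held 1 ETS match, on the other strand. *Cxcr4* held a TATA box read on both strands over the same bases, about 30 bases before the start (12.4% of windows), 3 GC boxes on the other strand (32.7%) and an NRF1 motif (6.42%). Its window was also the richest in G and C among the 7 genes (61.2%, against 41.2% for *Ccr6*, 46.4% for *Ccr4* and a median of 52.4% over all windows). Matches are letters only and say nothing of a bound factor.

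Likeness of pattern was measured as the Euclidean distance over the 4 libraries between log2 CPM values centred on each gene's mean, over the 10451 genes whose mean reached 100 counts. The closest genes to *Ccr6* were *Il2ra* (distance 0.079) and *Jakmip1* (0.087), to *Ccr4* *Lck* (0.18) and *Apol7e* (0.19), to *Ccr7* *Cd7* (0.11) and *Tmc8* (0.13), and to *Ccr8* *Tbc1d10c* (0.029) and *Ptprcap* (0.10). *Cxcr3* was closest to *5830411N06Rik* (0.14) and *Tnfrsf4* (0.15). *Cxcr5* (*Cracr2a* at 0.31, *Rhof* at 0.33) and *Cxcr6* (*Ifi214* at 0.18, *Hook1* at 0.20) had no closer partner. *Ccr2* was nearest to *Ppp1r3b* (0.066) and *Prpf4b* (0.068), and *Cxcr4* to *Zfp180* (0.036) and *Sugp2* (0.038). With 2 libraries per group these distances largely describe the fold change and the gaps between replicates.

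Of 17 other chemokine receptor genes, 12 passed the filter on low counts. *Cx3cr1* (log2 fold change 0.86, adjusted p = 0.016), *Ccr3* (1.07, adjusted p = 0.023) and *Cxcr2* (0.76, adjusted p = 0.043) were higher, and the scavenging receptor *Ackr3* was lower (-1.07, adjusted p = 0.0014). The other 8 were not called, including the abundant *Ccr1* (0.26), widely carried by myeloid cells. *Ccr9*, a receptor of gut-homing T cells and plasmacytoid dendritic cells, had 112, 96, 1435 and 224 counts, most of them in CD4/ALK4-KO replicate 1, and its log2 fold change of 3.18 was not called (adjusted p = 0.24). The median was 0.26, against 2.36 for the 9 lymphocyte receptors. On the CD3 scale 11 of the 12 were called lower, as were 92.0% of all genes tested.

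Among 16 ligands of the 9 receptors, 12 were tested, 5 were lower and 2 higher. The CCR2 ligands *Ccl2* (-0.83, adjusted p = 0.0044), *Ccl7* (-0.78, adjusted p = 0.0068), *Ccl8* (-1.19, adjusted p = 0.0027) and *Ccl12* (-1.02, adjusted p = 0.0045) all fell, while *Ccr2* itself rose. The CXCR5 ligand *Cxcl13* also fell (-0.78, adjusted p = 0.018), and the CXCR3 ligand *Cxcl9* (0.77, adjusted p = 0.0078) and the CCR4 ligand *Ccl22* (1.13, adjusted p = 0.0087) rose. Not called were *Ccl17* (-1.46, adjusted p = 0.059, 49 and 26 against 13 and 11 counts), *Cxcl10* (0.30), *Cxcl11* (0.71), *Cxcl12* (0.18) and *Cxcl16* (0.17). *Ccl1* had 2 to 11 counts, and *Ccl19*, *Ccl20* and *Ccl21a* had 0 in every library. On the CD3 scale 11 of the 12 ligands were called lower, as was 92.0% of the table. Beside these, 6 of 14 genes of epithelium, stroma and tumor were lower and 2 higher (median -0.64), *Col3a1* at -0.93, *Dcn* at -0.69 and *Sparc* at 0.13. The sum of the 14 was 7476 to 8026 CPM in the WT-labelled and 4762 to 5517 CPM in the KO-labelled libraries. The part of such cells in the ligand values was not tested. The erythroid gene *Alas2* was not called.

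Genes that carry the receptors' signal to the cytoskeleton and integrins were higher in 25 of 42 cases, lower in 1 and not called in 16 (median 0.85). The 5 with the largest rise were *Itgal*, a chain of the integrin LFA-1, at 2.23, *Dock2*, the Rac activator of lymphocyte migration, at 2.20, *Rassf5* at 2.18, *Rac2* at 2.15 and *Rhoh* at 2.05. The 16 not called included *Cdc42* (-0.067), *Rap1b* (0.33), *Gnai2* (0.14) and *Rac1* (-0.10), and *Gnb2* was lower (-0.57, adjusted p = 0.045). Receptor-desensitizing kinases and arrestins rose in part, *Grk3* at 1.81, *Arrb1* at 1.21, *Grk6* at 1.16, *Grk2* at 0.75 and *Arrb2* at 0.69. The other 15 called higher were *Elmo1* (1.84), *Ptk2b* (1.56), *Stk4* (1.54), *Arhgef1* (1.51), *Coro1a* (1.36), *Pik3cg* (1.33), *Itgb2* (1.23), *Pik3r5* (1.21), *Rgs3* (1.03), *Was* (1.01), *Fermt3* (0.99), *Rgs14* (0.99), *Tln1* (0.92), *Rgs10* (0.78) and *Wipf1* (0.59). On the CD3 scale, none of the 42 was called higher and 35 were called lower, where 92.0% of all genes tested were called lower. *Dock2* was at 0.0094 and *Rac2* at -0.025 on this scale.

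Of 20 further receptors, integrins and regulators of lymphocyte traffic, 15 were called higher and 0 lower, with a median log2 fold change of 1.54. The sphingosine phosphate receptor gene *S1pr1*, needed for exit from lymph nodes, was at 1.91, *Itga4* at 2.09 and *Gpr183*, an oxysterol receptor, at 1.38. *Itgb1* (-0.48, adjusted p = 0.068), *Cd44* (0.11), *Itgb7* (0.55), *S1pr5* (0.66) and *Klf2* were the 5 not called. On the CD3 scale 11 of the 20 were called lower, where 92.0% of all genes tested were called lower. Of the Th1 genes, whose cells carry CXCR3, 5 of 6 were called higher (median 1.61), with *Il18r1* at 1.27, *Stat4* at 1.59, *Tbx21* at 1.82 and *Il18rap* at 0.14 (adjusted p = 0.65).

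**Figure D5:**
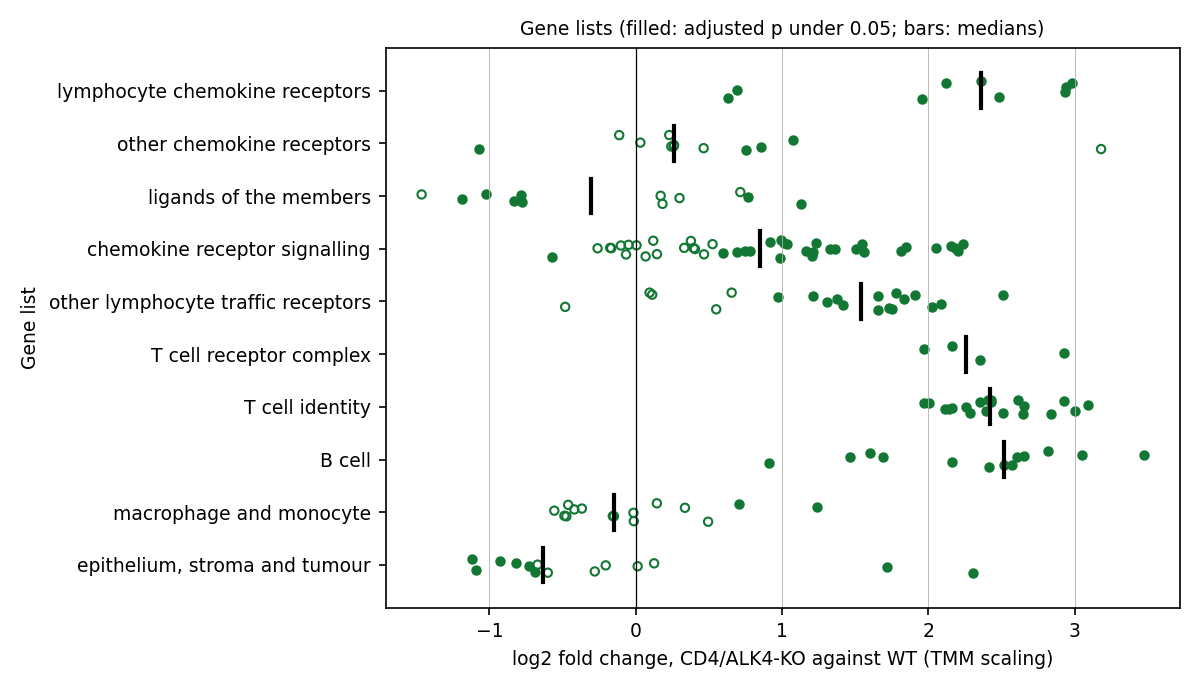
Log2 fold changes (TMM scaling) of the genes tested in 10 gene lists, KO-labelled against WT-labelled. Each point is a gene, filled where the adjusted p is under 0.05, and black bars are medians. The lymphocyte chemokine receptors (median 2.36) lie with the T cell identity (2.42) and B cell (2.52) genes, except *Ccr2* and *Cxcr4*, which lie near the other chemokine receptors (median 0.26).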

How the data were processed

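RNA-Seq libraries of tumor-infiltrating CD4+ T cells were compared, 2 labelled WT and 2 labelled CD4/ALK4-KO. The authors used HISAT2 to align the single-end reads to mm10, htseq-count (intersection-nonempty) to count them, and deposited raw counts per gene symbol. Versions, annotation and strand option are not given in the sources used here. No label says that replicates were separate mice beyond their description as biological replicates, so p-values measure the spread between these samples. Chi-square per degree of freedom between replicates was 16.0 and 28.7.

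From the deposited counts, edgeR 4.0.16 (R 4.3.3) fitted 13919 genes kept by filterByExpr, with TMM scaling, genotype as the only term, a robust quasi-likelihood test and Benjamini-Hochberg adjustment. The standard error is the absolute log2 fold change over the square root of F. On counts simulated from these libraries, a log2 change of 2 set in 200 genes was recovered in 98.5% of them, and 6 unchanged genes were called. Every simulated gene had the same spread between replicates (dispersion 0.0357). The figures therefore do not cover genes with a wider spread, or smaller changes such as those of *Ccr2* and *Cxcr4*. The CD3 scale takes *Cd3d*, *Cd3e*, *Cd3g* and *Cd247* counts as library sizes. Lengths and locations are those of GENCODE M21 (24366 of 25239 symbols matched). The alternatives were other scalings (including DESeq2 1.42.0 size factors), filters and tests, the removal of 123 ribosomal, mitochondrial, immunoglobulin and haemoglobin genes, the replicate block and each library left out.

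The receptors and lists were chosen with earlier results of these data known. Genes named were all 9 receptors, *Acvr1b* and *Cd4*, the 3 most abundant of each list and the called receptors, ligands and signalling genes, and the 2 nearest patterns per receptor. Other genes were named after their values were seen, as defining markers of their list or as examples. Lists share some genes. Intervals of counts cover counting error only. Flow cytometry, protein and ChIP measurements were not analysed here. Some genes that the naming rule covers are not reported here.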

Additional observations from a re-analysis of the deposited data

How the results depend on the processing

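Under a stricter filter (10 counts in every library) or none, DESeq2 size factors, the likelihood ratio test of edgeR, the Wald test of DESeq2 and the removal of 123 ribosomal, mitochondrial, immunoglobulin and haemoglobin genes, all 9 receptors were called higher. Upper quartile scaling called 8, *Ccr2* missing the threshold (0.56, adjusted p = 0.055). Leaving out each library in turn called 7 to 9 receptors, with a median log2 fold change from 2.23 to 2.49, and over all genes from 1103 to 2923 higher and from 754 to 2618 lower. The WT-labelled libraries moved the gene counts most, with 1103 higher and 754 lower without WT replicate 1, and 1344 and 1047 without WT replicate 2. *Acvr1b* ran from -0.065 to 0.39. Where a group was left with 1 library, that library was assumed to vary like the other group.

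On the CD3 scale 1 receptor was called higher and 2 lower (48 and 12803 genes over the table), the median was 0.18, and *Ccr2* (-1.58), *Cxcr4* (-1.49), *Cxcr6* (-0.26), *Ccr7* (-0.065) and *Acvr1b* (-2.01) changed sign. By construction, this scale moves every gene down by the rise of the CD3 genes. The order of levels was the same with the longest transcript as length and with DESeq2 size factors.

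With the replicate number as a block 7 receptors were called, *Ccr2* (0.63, adjusted p = 0.14) and *Cxcr4* (0.70, adjusted p = 0.085) missing the threshold, and 1768 genes were higher and 1444 lower. The labels give no pairing of the libraries, and the deviations of same-numbered libraries were correlated at -0.21 across genes. The crossed pairing, chosen after seeing the data, called 9 receptors, 3118 genes higher and 3037 lower. With counts of 33 to 60 per WT-labelled library, the depth limits the precision of *Ccr4*, *Ccr6*, *Ccr8* and *Cxcr5*.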
